A study of Drosophila melanogaster with 3 samples.

Results

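The yolk protein genes Yp1, Yp2 and Yp3, the yolk receptor gene yl and the vitelline membrane genes Vm26Aa, Vm26Ab, Vm26Ac, Vm32E and Vm34Ca are 9 of the 18164 annotated fly genes and were taken as a list of names. The peaks counted for a gene were those whose summit, the position of highest signal in a peak, lay in the gene or within 1 kb upstream of it. The interval between Yp1 and Yp2 was read as a region of its own. The data are chromatin immunoprecipitation with sequencing (ChIP-seq) of Bab1 (Bric-a-brac 1), a DNA-binding protein that pairs a pipsqueak-type domain with a BTB domain, in whole adult female Drosophila melanogaster. There was 1 group, of 3 biological replicates: flies of a transgenic line, labelled bab1-RA (bab1-s)-GFP, that stably carries Bab1 with GFP at its C terminus, immunoprecipitated with an antibody against GFP. All samples carry the tag, the age of the flies is given as unknown, and there is no library of untagged flies among the lists used, so Bab1 sites and immunoprecipitation background cannot be told apart. Whole flies were used, so the tissue a peak comes from cannot be told. With 1 group there is no comparison between conditions, and values are given as descriptions beside the same count over all genes.

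Yolk proteins are made in the fat body and in the follicle cells of the ovary, are carried in the blood and are stored in the growing oocyte as food for the embryo. In females their transcription is known to depend on the female form of Doublesex, with hormones and GATA factors, and Yp1 and Yp2 are transcribed away from each other from a shared interval that holds known fat body and ovary enhancers. The receptor Yolkless, encoded by yl, is a relative of the LDL receptor that takes yolk proteins into the oocyte. Vitelline membrane proteins are small proteins that follicle cells secrete around the oocyte as the innermost layer of the eggshell, and each gene is known to be active in a short window of egg chamber development.

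Most members had a peak in the long lists, and few had one among the strongest peaks. In the deposited list of 6896 peaks cut by the irreproducible discovery rate (IDR), 2 of the 9 genes had a summit, Yp3 and Vm34Ca. That is 22.2% of them against 37.8% of all genes and 31.5% of protein-coding genes up to 2 kb long. In the longer list called on the pooled replicates (30000 peaks), 8 of the 9 had a summit, 88.9% of them against 60.5% of all genes and 52.4% of the short protein-coding genes. The gene without one was yl. The IDR peaks are the 6896 strongest of these pooled peaks. Absence from the IDR list therefore marks a lower pooled rank or no pooled peak, and not a peak shown to be irreproducible. In the whole replicate lists, of 30000 peaks each, 8.33 ± 0.577 members had a summit (mean ± SD, n = 3). That was all 9 genes in replicate 1, against 59.7% of all genes and 51.1% of the short protein-coding genes. It was 8 genes in replicate 2, against 59.3% and 51.2%, and 8 genes in replicate 3, against 60.4% and 52%. The top list of a replicate here means its strongest peaks, as many as the IDR list holds. By the top lists, 2.67 ± 0.577 members had a summit (SD, n = 3), with 3 in replicate 1 (Yp3, Vm26Aa and Vm34Ca), 3 in replicate 2 (Yp2, Vm26Ac and Vm34Ca) and 2 in replicate 3 (Yp1 and Vm34Ca), against 36.4%, 37% and 36.2% of all genes and 29.9%, 30.7% and 29.5% of the short protein-coding genes. Vm34Ca was in all 3 top lists, and each of the other 5 genes named was in 1 of them. When an IDR summit also had to lie in a top-list peak of both replicates left after dropping 1, the count of 2 members became 1 without replicate 1 (Vm34Ca), 0 without replicate 2 and 0 without replicate 3. Member counts of 2 or 3 out of 9 are near the shares of all genes, and the IDR list was made from the same 3 replicates, so these counts are not independent of each other.

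**Figure D1:**
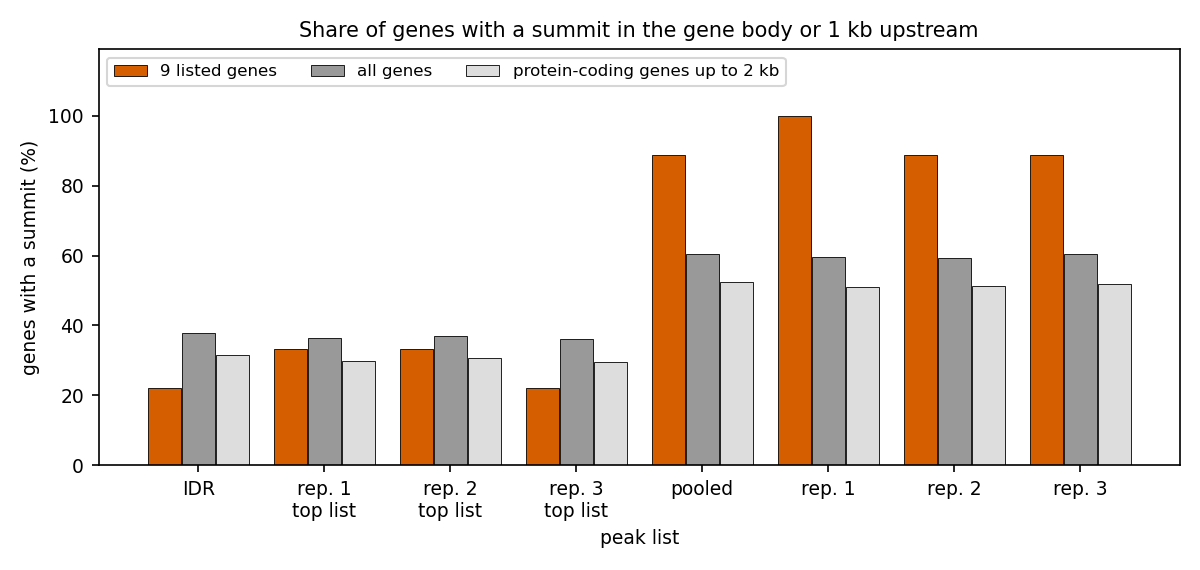
Percent of genes with at least 1 counted summit, from 1 kb upstream to the gene's end (y axis) in each peak list (x axis), for the 9 listed genes, all genes and protein-coding genes up to 2 kb long. In the IDR list the 9 genes stand at 22.2% and all genes at 37.8%, while in the pooled list the 9 genes stand at 88.9% and all genes at 60.5%.

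The DNA under the strongest pooled summit is shown for 5 members: the yolk protein genes, whose peaks lie in the shared interval or, for Yp3, in the IDR list, and Vm34Ca and Vm26Ab, the vitelline membrane genes with the highest rank. Each sequence runs 75 bases to either side of the summit, stops before the transcription start site (TSS), and is given 5′ to 3′ on the gene's strand from the RefSeq genome of dm6. Capitals mark letters of any of 8 motifs searched on both strands, and the summit is base 76. The Yp1 sequence is chrX:10053662-10053810 (plus strand), Yp2 is chrX:10052692-10052842 (minus strand), Yp3 is chrX:13759103-13759253 (plus strand), Vm34Ca is chr2L:13411647-13411797 (minus strand) and Vm26Ab is chr2L:5956819-5956969 (plus strand).
Yp1: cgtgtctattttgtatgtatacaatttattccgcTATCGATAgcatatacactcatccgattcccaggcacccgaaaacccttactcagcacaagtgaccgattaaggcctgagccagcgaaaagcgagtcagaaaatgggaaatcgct
Yp2: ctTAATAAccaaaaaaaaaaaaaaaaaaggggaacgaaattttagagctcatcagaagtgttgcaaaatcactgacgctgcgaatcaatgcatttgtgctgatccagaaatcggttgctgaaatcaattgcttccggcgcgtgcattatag
Yp3: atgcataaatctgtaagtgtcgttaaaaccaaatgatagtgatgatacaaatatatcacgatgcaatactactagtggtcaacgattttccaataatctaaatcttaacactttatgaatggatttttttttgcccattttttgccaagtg
Vm34Ca: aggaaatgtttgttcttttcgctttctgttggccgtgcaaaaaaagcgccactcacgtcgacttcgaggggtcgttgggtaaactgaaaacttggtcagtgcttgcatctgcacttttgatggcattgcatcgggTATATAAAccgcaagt
Vm26Ab: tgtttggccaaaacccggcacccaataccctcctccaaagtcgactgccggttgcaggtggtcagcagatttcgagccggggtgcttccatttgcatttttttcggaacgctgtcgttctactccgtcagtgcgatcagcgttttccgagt

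The capitals in Yp1 are TATCGATA, the DNA replication-related element (DRE), which starts 115 bases before the TSS. Windows of the same size at all 30000 pooled summits held it in 2.21% of cases. The capitals in Yp2 are TAATAA, TA-rich letters of the kind described for Bab proteins, which 16.7% of those windows held. The capitals in Vm34Ca are TATATAAA, in which a TATA box, TATAAA (19.0% of windows), and TATATA (10.5%) overlap. The sequences of Yp3 and Vm26Ab held none of the motifs. Those of Vm26Aa and Vm26Ac, not printed, also held none, and that of Vm32E held TAATAA and the GATA letters AGATAA (9.37% of windows). GAGAG (18.1%), the Doublesex core ACAATGT (2.48%) and the ecdysone receptor letters AGGTCA (3.23%) were in 0 of the 8 member sequences. A match of letters is not a bound site, and a missing match says nothing of the factor.

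Yp1 (FBgn0004045, dm6 chromosome X, 10053811 to 10055498, plus strand) and Yp2 (FBgn0005391, X, 10050951 to 10052636, minus strand) lie back to back, with 1174 bp between them. No IDR summit lay in that interval, but the pooled list and every replicate list had exactly 2 summits there, 1 near each gene. Among 818 intervals of 500 to 2000 bp between protein-coding neighbours transcribed away from each other, 53.3% held at least 1 pooled summit and 15% held at least 2, and in the replicate lists 16.3%, 16.7% and 14.1% held at least 2 (replicates 1, 2 and 3). IDR summits lay in 29.1% of them. The pooled summits were 970 bp apart, 74 bp upstream of the Yp1 start and 131 bp upstream of the Yp2 start, and both fell between the genes, in no exon or intron.

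The pair had nearly equal strength in the pooled list and unequal strength in the replicates. Signal values come from the authors' peak caller and have a scale of their own in each list, so ranks are used across lists. In the pooled list the peak on the Yp1 side (10053525 to 10053948) had a signal value of 186.3 and rank 7651, and the peak on the Yp2 side (10052555 to 10052978) had 185.9 and rank 7665. On the Yp1 side, replicate 1 gave a signal value of 26.5 at rank 19099, replicate 2 gave 105.0 at rank 6972 and replicate 3 gave 72.9 at rank 4198. On the Yp2 side, replicate 1 gave 36.9 at rank 13146, replicate 2 gave 128.3 at rank 5301 and replicate 3 gave 24.6 at rank 20241. The Yp2 side was the stronger in replicates 1 and 2, with signal ratios Yp2 over Yp1 of 1.39 and 1.22, while in replicate 3 the Yp1 side was 2.96 times the Yp2 side. Neither side was in the top lists of 2 replicates: the Yp1 peak was in that of replicate 3 and the Yp2 peak in that of replicate 2.

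**Figure D2:**
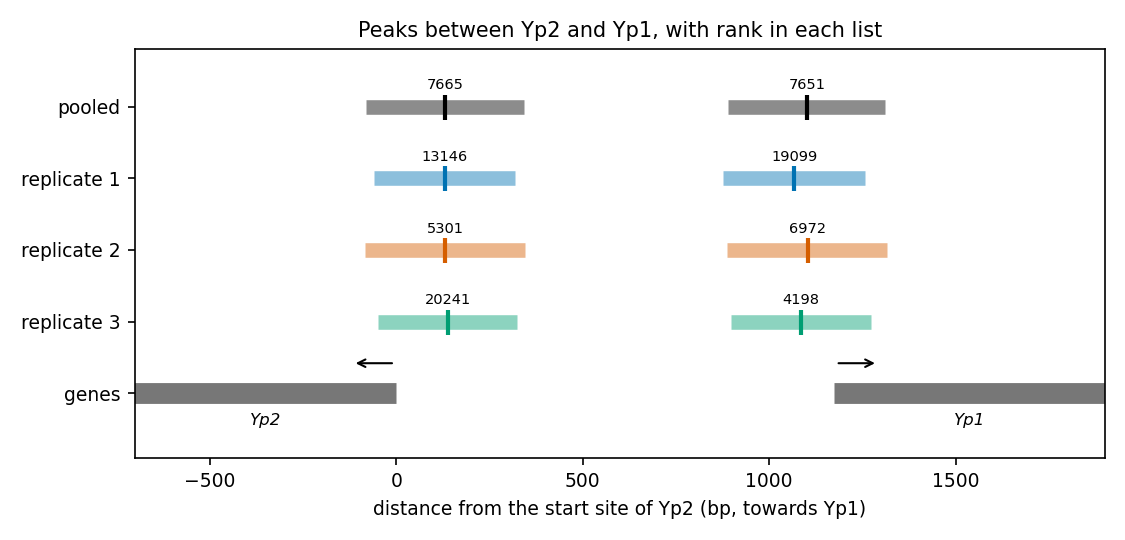
Peak intervals (bars) and summits (ticks) between Yp2 and Yp1 in the pooled list and the 3 replicate lists, with the rank of each peak printed above it; the x axis is the distance from the Yp2 start site in bp, grey bars are genes and arrows give the direction of transcription. Each list has 1 peak beside each gene, and the Yp1 side ranks from 4198 to 19099 over the replicates while the Yp2 side ranks from 5301 to 20241.

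The positions of these summits varied little while their ranks varied widely. The 3 replicate summits spanned 36 bp at Yp1 and 8 bp at Yp2. Over the 14091 pooled peaks that had a summit within 200 bp in every replicate list, the median span was 83 bp, with quartiles of 45 and 140 bp. The worst replicate rank was 4.55 times the best at Yp1 and 3.82 times at Yp2, against a median of 2.11 over those peaks, of which 14.8% had a ratio above that of Yp2. Most peaks have a fixed width with the summit in the middle (82.2% of pooled peaks are 424 bp wide), which limits how finely a summit places the signal.

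Other summits at these genes were weak. In the Yp1 gene body the pooled list had summits 1336 bp (rank 23266) and 1646 bp (rank 24608) downstream of the start, nearest the start of the antisense gene asRNA:CR45601. Replicate 1 had a summit near the nearer of these (rank 25252), replicate 2 had both (ranks 24751 and 18497), and replicate 3 had none in the gene body. In the Yp2 gene body a pooled summit lay 1615 bp downstream of the start (rank 16022), near the 3′ end, where Cht6 ends 147 bp away. No IDR summit lay within 10 kb of the start of either gene. The nearest was 28532 bp downstream of the Yp1 start, 149 bp from a start of ZAP3 (signal 289.7, rank 4150).

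The interval held all of the searched motifs except GAGAG, and TATAAA occurred most often, 7 times counting both strands. One of these, on the Yp2 strand, began 28 bases before the Yp2 start. The other matches were the single DRE, inside the Yp1 peak at chrX:10053696-10053703, 1 ACAATGT 253 bases before the Yp1 start, 1 AGGTCA, 1 AGATAA, 3 TAATAA and 1 TATATA. The ACAATGT letters, the core that Doublesex is known to bind, lay 179 bp from the pooled Yp1 summit, within the 424 bp peak interval. The AGGTCA and AGATAA letters lay within the pooled Yp2 peak interval, as did the TATAAA on the Yp2 strand and the TAATAA of the printed Yp2 sequence. How often peak intervals of this width, or intervals between genes of this length, hold these letters was not counted.

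Yp3 (FBgn0004047, X, 13759546 to 13761547, plus strand), the third yolk protein gene, lies apart from the pair and had 1 IDR peak (13758966 to 13759389). Its summit lay 368 bp upstream of the start, between Rtc1, which ends 947 bp before Yp3, and Yp3 itself. The peak had a signal value of 229.0 and rank 5858, toward the weak end of the IDR list, whose lowest signal value was 201.9. Its replicate counterparts had ranks 4869, 7494 and 8095 in replicates 1, 2 and 3, with signal values 80.3, 99.4 and 48.6 in each list's own scale, and their summits spanned 23 bp. The peak was in the top list of replicate 1, and missed the end of the top lists by 598 ranks in replicate 2 and 1199 ranks in replicate 3. Further summits at Yp3 were found in a single replicate each: 607 bp downstream of the start in replicate 1 (rank 23663), 192 bp upstream in replicate 2 (rank 13875) and 1745 bp downstream in replicate 3 (rank 27744).

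Around Yp3 peaks were denser than around the pair. Within 10 kb of its start lay 7 IDR summits, against a median of 1 over all genes (quartiles 0 and 3), and 18 pooled summits, against a median of 7 (quartiles 2 and 10). Within 10 kb of Yp1 and of Yp2 lay 0 IDR summits, and 12 and 11 pooled summits. The genes beside Yp3 are Rtc1 and, 1204 bp past its 3′ end, rdgB, a phototransduction gene.

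The receptor gene yl (FBgn0004649, X, 14193214 to 14199958, plus strand) is the longest member at 6745 bp and the one with fewest summits. The IDR and pooled lists and replicates 2 and 3 had none, and replicate 1 had 1, 206 bp downstream of the start (signal 28.9, rank 17330). The nearest IDR summit lay 6937 bp downstream of the start, past the 3′ end of yl and 27 bp from the start of CG11590 (14199939 to 14200362, signal 284.9, rank 4266). That peak's interval reaches back over the last bases of yl, so that yl counts as carrying an IDR peak when any overlap is accepted. Replicates 1, 2 and 3 had summits at the CG11590 start at ranks 3503, 6877 and 2674.

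**Figure D3:**
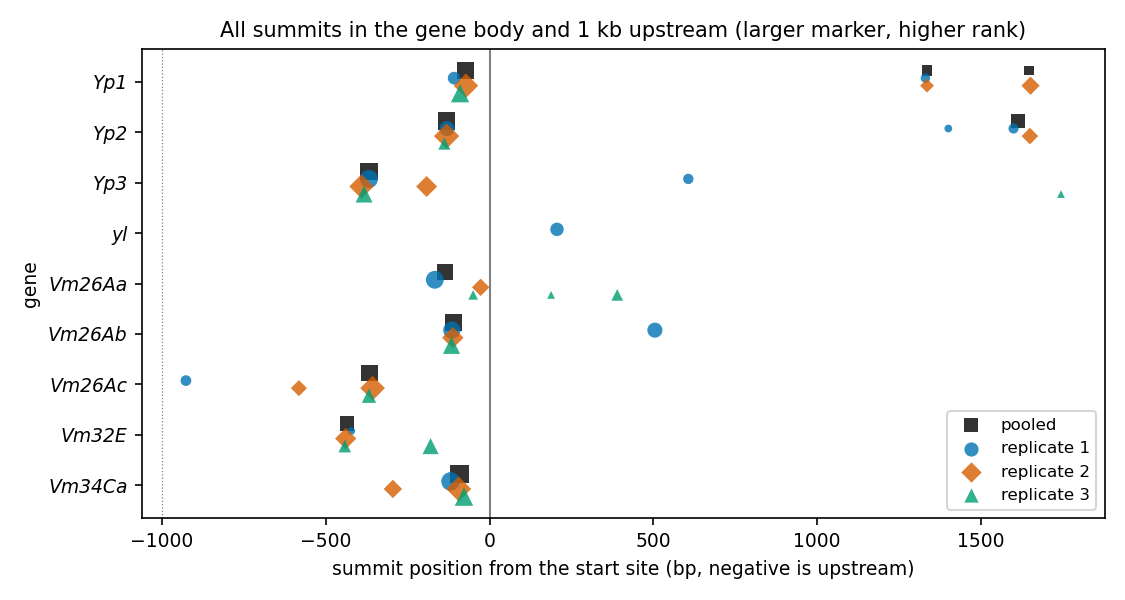
Position of every summit counted for each of the 9 genes, in bp from the gene's start site (x axis, negative is upstream, dotted line at 1000 bp), in the pooled list and the 3 replicate lists; marker size grows with rank. At 8 genes the strongest pooled summit lies 74 to 435 bp upstream, and yl has 1 summit, in replicate 1.

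At the 8 genes with a pooled summit, the strongest lay upstream of the start in all 8, by 74 to 435 bp with a median of 133.5 bp. Over all genes with a pooled summit, the strongest lay upstream in 59.6%, and 1 to 500 bp upstream in 46.5%. Over protein-coding genes up to 2 kb long the shares were 72.9% and 58.3%. Of these 8 sites, 7 had a summit within 200 bp in every replicate list, against 47% of all pooled peaks and 32.5% of pooled peaks below the IDR list. The exception was Vm26Ac, whose nearest summit in replicate 1 was 561 bp away. These shares are not matched for strength. The sites are the strongest of each gene, and those outside the IDR list ranked from 7500 to 15110 among 30000 pooled peaks. The pooled list was also made from the same replicates, so the shares do not show that the members are unusually reproducible.

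Vm34Ca (FBgn0003983, chromosome 2L, 13411141 to 13411631, minus strand), which encodes a vitelline membrane protein, had the strongest peak among the members. The IDR peak (13411635 to 13411803) had a signal value of 316.9 and rank 3510, with its summit 91 bp upstream of the start. The replicates gave signal values of 101.0 (rank 3280), 118.1 (rank 5943) and 83.7 (rank 3267) in replicates 1, 2 and 3, and summits that spanned 41 bp. It was the member present in all 3 top lists. The replicate 1 peak (13411729 to 13411828) began 7 bp beyond the IDR summit, so a rule that asks the IDR summit to lie inside a replicate 1 peak leaves this gene out. The gene beyond its start is Flad2, 887 bp away and transcribed the other way. CG7110 ends 93 bp past its 3′ end. Replicate 2 had a second, weaker summit 295 bp upstream of Vm34Ca (rank 18338).

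**Figure D4:**
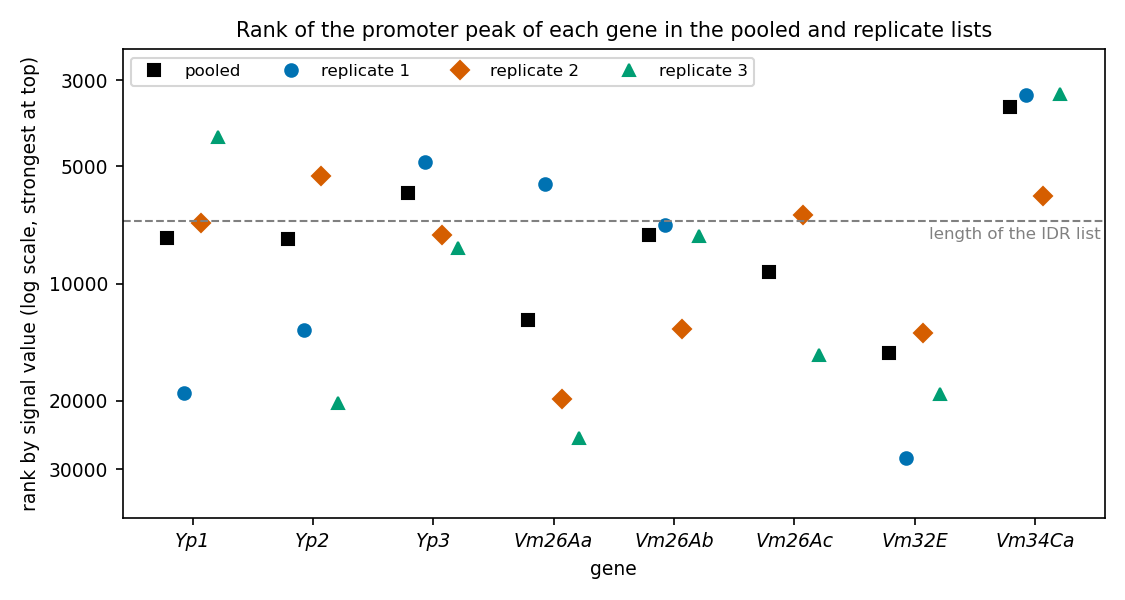
Rank by signal value (y axis, log scale, strongest at top) of the strongest pooled peak of each gene and of the replicate summit within 200 bp of it; the dashed line is the length of the IDR list, and Vm26Ac has no replicate 1 point. Vm34Ca lies above the line in every list, Vm32E and Vm26Ab lie below it in every list, and the replicates of Yp1, Yp2, Yp3, Vm26Aa and Vm26Ac fall on both sides of it.

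The other vitelline membrane genes carried no IDR summit. Vm26Ab (FBgn0003980, 2L, 5957004 to 5957639, plus strand) came nearest, with a pooled peak at 5956682 to 5957105 of signal value 189.3 and rank 7500, which is 604 ranks past the end of the IDR list. Its summit lay 110 bp upstream of Vm26Ab and 75 bp from the start of CG13998, which is transcribed the other way with 184 bp between the genes, so the peak cannot be assigned to either. Replicates 1, 2 and 3 gave signal values of 61.7 (rank 7064), 63.2 (rank 13058) and 51.1 (rank 7532). The 3 summits lay within 4 bp of each other. Replicate 1 also had a summit in the gene body, 505 bp downstream of the start (signal value 36.5, rank 13292). Yp1, Yp2 and Vm26Ab are the members within 1000 ranks past the end of the IDR list, and Yp3 is the last member inside it.

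Vm26Ac (FBgn0086266, 2L, 5958005 to 5958631, minus strand) had a pooled peak of signal value 157.4 and rank 9342, 366 bp upstream. Replicate 2 held it at signal value 108.8 and rank 6660, and replicate 3 at 30.5 and rank 15239. In replicate 1 the only summit counted for the gene lay 927 bp upstream, at signal value 22.4 and rank 23015. The start of Vm26Aa, 782 bp away, was nearer to that summit. Vm26Aa (FBgn0003979, 2L, 5959596 to 5960340, minus strand) had a pooled peak of signal value 122.4 and rank 12419, 136 bp upstream. Its replicate values were 73.5 (rank 5553), 44.2 (rank 19852) and 20.9 (rank 24989) in replicates 1, 2 and 3, and the summits spanned 140 bp. Replicate 3 also had summits in the gene body, 390 bp (rank 21163) and 188 bp (rank 27705) downstream of the start. Replicate 1 ranked Vm26Aa far above replicates 2 and 3, and replicate 2 ranked Vm26Ac above replicate 3.

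The strongest peak of the 26A cluster in the pooled list, and in replicates 1 and 3, lay outside the window of any vitelline membrane gene. An IDR peak at 5962260 to 5962683 (signal 234.0, rank 5702) had its summit 2132 bp upstream of Vm26Aa, in the 2746 bp between that gene and psd (palisade), which encodes another vitelline membrane protein. The summit was 615 bp past the 3′ end of psd and 1850 bp from its nearest annotated start. Replicate 1 had it at rank 3578 and replicate 3 at rank 6488. Replicate 2 had 2 overlapping peaks there, at ranks 7423 and 18097, both weaker than its peak upstream of Vm26Ac, at rank 6660. The psd gene had 2 pooled summits in its own window and no IDR summit.

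**Figure D5:**
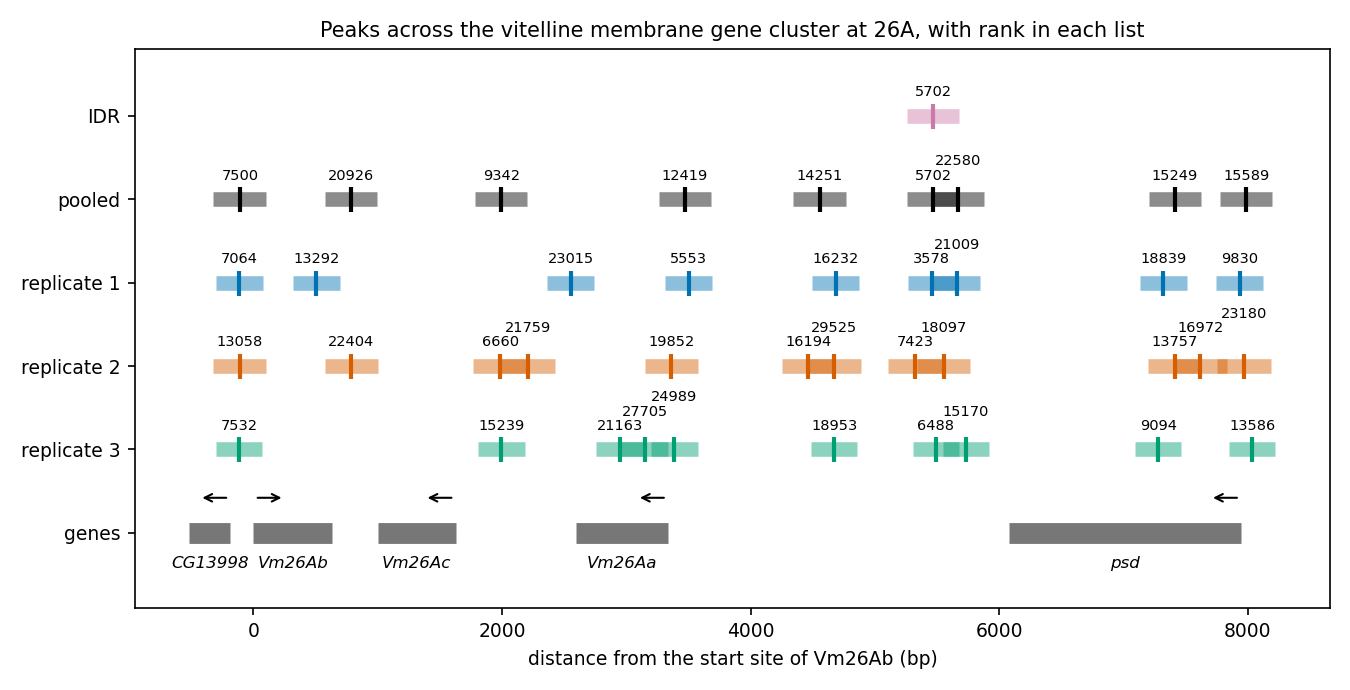
Peak intervals (bars) and summits (ticks) across the 26A cluster in the IDR, pooled and replicate lists, with ranks printed above; the x axis is the distance from the Vm26Ab start site in bp, grey bars are genes and arrows give the direction of transcription. The IDR list has 1 peak here, at rank 5702 between Vm26Aa and psd, and the replicates differ in which of the peaks beside Vm26Ac and Vm26Aa they rank high.

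Vm32E (FBgn0014076, 2L, 11171167 to 11171665, minus strand) lies inside Ca-beta, a calcium channel subunit gene on the same strand, and had the weakest site. Its pooled peak (11171888 to 11172311) had a signal value of 102.9 and rank 15110, with the summit 435 bp upstream in an intron of Ca-beta. The counterparts had signal values of 18.5 (rank 28021), 61.9 (rank 13411) and 25.6 (rank 19221) in replicates 1, 2 and 3, with summits spanning 20 bp. A stronger summit in replicate 3, 180 bp upstream (signal 39.8, rank 10691), had none within 200 bp in the other replicates. No IDR summit lay within 10 kb of its start.

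The order of the members by pooled rank was Vm34Ca, Yp3, Vm26Ab, Yp1, Yp2, Vm26Ac, Vm26Aa and Vm32E, with yl unranked. The replicates gave other orders. Vm34Ca ranked first among the members in replicates 1 and 3, at 3280 and 3267, and in replicate 2 Yp2, at 5301, stood above Vm34Ca, at 5943. The replicate ranks of Yp1, Yp2, Vm26Aa and Vm26Ac overlap each other widely, so their order is within the spread of the replicates. At the highest −log10 q value of their list stood the pooled peaks of 6 members, with 4.32. Those of Vm26Aa (3.22) and Vm32E (2.48) were lower. The value 4.32 was shared by 34.9% of all pooled peaks and 100% of the IDR peaks, so it does not set these members apart.

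Promoters were also read as the 300 bases before the start of each of 13945 protein-coding genes, whatever the peaks. TATAAA in the direction of transcription, starting 20 to 45 bases before the start, was found in 5 of the 9 members (Yp2, Vm26Aa, Vm26Ab, Vm26Ac and Vm34Ca) against 8.81% of all promoters; this window was chosen after the positions were seen. It stood at 28 to 31 bases before the start in these 5. TATAAA anywhere in the 300 bases, on either strand, was in 7 members against 48.0% of promoters. The DRE was in 1 member (Yp1) against 8.59%, ACAATGT in 2 (Yp1 and Vm26Ac) against 4.73%, AGGTCA in 2 (Vm26Ab and Vm26Ac) against 6.20%, TAATAA in 2 (Yp2 and Vm32E) against 39.6%, TATATA in 2 (Yp3 and Vm34Ca) against 25.9%, GAGAG in 1 (Vm26Ab) against 28.9% and AGATAA in 0 against 19.8%. The GC content of the member promoters ran from 39% (Vm32E) to 54.7% (Vm26Ac), against a median of 37% over all promoters. Repeated sequence was scarce in the member windows: at most 0.548% of 31-base words (Vm34Ca) occurred elsewhere on the chromosomes, and 0.376% and 0.377% at Yp1 and Yp2.

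The genes most alike in replicate pattern were found from the percentile rank of the strongest summit in each replicate list, over 8386 protein-coding genes with a summit in all 3. Yp1 was nearest Abd-B, at a distance of 2.24 percentile points, and CG30065 (4.71). Yp2 was nearest Tsen54 (5.96) and loh (8.18). Yp3 was nearest CG4646 and CG17059 (1.30 each, with the same values for both). Vm34Ca was nearest Flad2, its neighbour, which shares its strongest summits, and REG (0.976). Vm26Ab shared its strongest summits with CG13998 and CG13999. Vm26Aa was nearest Cyp6a21 (11.0) and alpha-Man-IIa (13.9), Vm26Ac nearest por and CG6179 (8.49 each), and Vm32E nearest CG43155 (5.64) and CG6168 (8.66). With 3 values a gene, these are neighbours in rank and no more.

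Other genes of the same pathways are set beside the members by how many carried an IDR summit. These lists, with the eggshell genes below, were chosen with earlier results of these data known. Their shares are descriptions and cannot be read as enrichment over all genes, which include genes of every type. Of 12 genes of yolk uptake, the endocytic and secretory machinery that oocytes use to take in yolk, 12 had one (100% against 37.8% of all genes). Their strongest signal values ran from 237.1 (shi, the dynamin) to 1428.7 (Rab5, a GTPase of early endosomes), and included 661.2 at boca, a chaperone for Yolkless and related receptors, 358.9 at jagn, 327.3 at Chc, the clathrin heavy chain, 432.1 at AP-2alpha and 1088.1 at Rbsn-5. Others lay at Rab11 (533.2), Rab7 (353.2) and the exocyst genes Sec5 (297.8), Sec6 (767.0) and Sec15 (1060.7). The start of another gene was nearest for boca (Vps13), Sec15 (rtet), AP-2alpha (ebi) and Rbsn-5 (PAPLA1). The next list holds 19 genes named here as regulators of yolk gene transcription, bab1 and bab2 among them, a role that was not tested in these data. Of these, 14 had an IDR summit, or 73.7% against 37.8% of all genes. They were dsx (322.4), her (421.2), tra2 (364.4), fru (441.7), EcR (517.9), usp (502.9), br (626.0), Met (235.3), gce (1269.5), Kr-h1 (508.0), srp (458.5), Aef1 (356.7), ftz-f1 (394.1) and bab1 (369.3), with strongest signal values in parentheses. At EcR, br, gce, Aef1 and ftz-f1 the start of another gene was nearest the strongest summit, and at Kr-h1 the nearest start, 2905 bp away, is one that Kr-h1 shares with CG45075. At dsx, which encodes the Doublesex factors, the strongest summit lay in the gene 15267 bp from the nearest start. At fru it lay 6164 bp and at bab1 16554 bp from the nearest start. The flies carry bab1 also as the tagged transgene, and whether that adds to the signal at bab1 was not tested. The other 5 regulators, ix, tra, GATAe, slbo and bab2, had none.

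Of 14 further eggshell genes, 6 had an IDR summit, or 42.9%, near the 37.8% of all genes. They were clos (1014.2), dec (701.5), fs(1)N (546.3), pip (546.0), Vml (331.4) and ndl (223.6), with strongest signal values in parentheses, and the nearest start was another gene's for clos (CG1827) and Vml (Grp170). The others, psd, fs(1)M3, tsl, Fcp3C, Femcoat, yellow-g, yellow-g2 and Cad99C, had none, and fs(1)ph was not analysed here. Gene length differs between these lists: the median was 2996.5 bp for yolk uptake, 13896 bp for the regulators and 5232 bp for the eggshell genes, against 745 bp for the members and 1656 bp for all genes. The part of length in these counts was not tested.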

How the data were processed

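The data used were ChIP-seq peak lists of Bab1-GFP adult females, from 3 biological replicates. Per the labels, chromatin was sonicated to 200 to 800 bp and the build was dm6. Nothing in the labels says whether replicates were separate cultures, so SDs measure these 3 samples only. The deposited lists, in narrowPeak layout, were called against 1 control library per the deposited file listings. Neither aligner nor peak caller is given in the sources used here. The authors' signal values were used as deposited, ranked within a list, and the authors' −log10 q values were used as deposited; depth is unknown and no counting interval can be given. The 6896 IDR peaks are the strongest pooled peaks, unchanged.

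Genes came from Ensembl release 115 (18164 genes without transposons, main chromosomes without Y), sequence from RefSeq. Scripts used Python 3.11.15, numpy 2.4.6, pandas 2.3.3 and matplotlib 3.10.9; window counts and motif searches were tested on simulated data. No test was run, since there is 1 group. Text names all members with their strongest summits, and only some of their weaker summits and flanking genes. It also names genes of further lists with IDR summits and the 2 genes nearest in replicate percentiles. Members and lists were chosen with earlier results of these data known. Alternatives varied the window, overlap rule, list and replicates. The 200 bp matching, the short-gene class, divergent intervals, 10 kb counts and 31-base words were added after the data were seen.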

Additional observations from a re-analysis of the deposited data

How the results depend on the processing

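The presence of an IDR summit at members depended on the window and on which peaks were kept. Of the 9 genes, 2 had an IDR summit as reported, 0 in the gene body alone, 0 among the 3448 strongest IDR peaks, 8 in the pooled list, and 0 to 1 when each replicate was left out in turn, asking the IDR summit to lie in a top-list peak of both other replicates. Without replicate 1 the remaining gene was Vm34Ca. It was lost without replicates 2 and 3 because the replicate 1 peak began 7 bp beyond the summit, and Yp3 was lost because it missed the top lists of replicates 2 and 3. The mean over replicate top lists was 2.67, with 2.5 to 3 when a replicate was left out, 0 in the gene body alone and 0.667 in top lists of 3448 peaks. For whole replicate lists the mean was 8.33, with 8 to 8.5 when a replicate was left out and 3 in the gene body alone. The count between Yp1 and Yp2 was 0 in the IDR list and 2 in the pooled list. Leaving out a replicate can only remove IDR summits, so it says nothing about that count of 0. In whole replicate lists it was 2, also when any replicate was left out, when any overlap was accepted and when 500 bp were added on each side. Of 81 values of single members under the alternatives, 65 stayed within 1.5 times the reported count, where a count of 0 had to stay 0. Most members had a reported count of 0. For them the gene body alone, the stronger IDR peaks and leaving out a replicate could only return 0. The 65 is therefore not a measure of stability. Read depth is unknown, so how many weak peaks are noise cannot be judged from these lists. No paired analysis was possible because there is 1 group.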
